A study of Mus musculus with 5 samples.

Results

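The 38 genes described here encode the parts with which epithelial cells join and polarise. They comprise the adhesion proteins EpCAM and E-cadherin (2 genes), 10 claudins, 4 other tight junction membrane proteins, 4 tight junction scaffold proteins, 3 polarity proteins, 6 desmosome proteins, 4 simple keratins, the membrane protease matriptase with its inhibitors (3 genes) and 2 proteins of the apical surface. They were chosen by symbol, without use of a measured value, and all 38 were found among the 32286 features of the data. Single-cell RNA-seq was available for 5 synovial sarcomas (SyS) of *hSS2* mice. These mice carry the human *SS18::SSX2* fusion at *Rosa26*, silent until TATCre protein is injected into the limb at 8 days of life, so that any limb cell that takes up the protein can express it, and all 5 tumours share this genotype and treatment. The tumours were taken at morbidity, and the histology of adjacent tissue gave the labels. There were 2 biphasic tumours (BP, with an epithelial component), 1 monophasic tumour of spindle cells (MP), 1 with both patterns (MP+BP) and 1 in which poorly differentiated areas lay beside monophasic ones (PD+MP). Titles of both BP tumours share a leading number whose meaning was not stated, so they may come from 1 animal. The mice were of a mixed CB57Bl/6-svJ strain, of both sexes and aged 2 to 6 months, with no breakdown by tumour. Labels with 1 tumour have no replicate error.

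Epithelial cells seal the space between neighbours with tight junctions, in which claudins, occludin, tricellulin and JAM-A cross the membrane and ZO and cingulin proteins tie them to actin. The Crumbs and Par complexes place these junctions at the border of the apical surface, desmosomes anchor keratin filaments, and E-cadherin holds the adherens junction below. Endothelial cells also build tight junctions, with claudin-5, JAM-A and ZO-1, so several of these genes are not epithelial alone. In synovial sarcoma, keratin and EpCAM staining of gland-like areas is a long-used diagnostic feature of the biphasic form.

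The question was which of these genes are on in the tumour cells of each label, which stay off and which belong to vessels. The matrices held 51670 called cells and 498186066 unique molecular identifiers (UMIs, each counting 1 captured RNA molecule), and 39559 cells were kept. Clusters were named from fixed markers that include none of the 38 genes. SyS-like cells numbered 24348, of which BP replicate 1 gave 2713, BP replicate 2 5121, MP 4422, MP+BP 5927 and PD+MP 6165, at a median of 8166 to 13991 UMIs. They were set beside 2418 endothelial-like, 3873 macrophage-like and 1410 stromal cells (pericyte-like, and fibroblast-like mostly in PD+MP). Because the clusters were named from these markers, the marker sums describe the classes and are no independent check of the names. The SyS markers summed to 3728 to 5451 counts per 1e6 UMIs (CPM) in SyS-like cells and 125 to 793 elsewhere. Signal of other cell types was present at a low level in SyS-like cells, in which all 11 endothelial markers had UMIs, summing to 132 to 291 CPM against 6895 to 8020 in endothelial-like cells. The 10 macrophage markers summed to 34.0 to 66.7 CPM in SyS-like and 20413 to 22623 in macrophage-like cells. The keratinocyte markers, which skin in the sample would bring, reached 12.8 to 66.1 CPM in SyS-like cells. They were at 22.2 to 40.5 CPM in stromal, 12.9 to 20.7 in endothelial-like and 5.40 to 8.80 in macrophage-like cells. Another 6379 cells stayed unnamed. Tumour pairs shared 15 to 33 cell barcodes, at most 0.302% of the smaller matrix.

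Levels are given as CPM, a gene's UMIs over all UMIs of a cell class in 1 tumour. The chemistry reads the 3′ end, CPM is not divided by gene length, and levels were therefore compared between cells for a gene and not between genes. Where 5 values are listed they stand in the order BP replicate 1, BP replicate 2, MP, MP+BP and PD+MP. Intervals are exact 95% intervals and cover counting error only.

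The promoters of 5 of the genes are shown first, because they stand for the patterns that the data hold. *Epcam*, *Spint2*, *Pard6b* and *Cldn3* were higher in SyS-like cells than in every other class tested, and *Cldn5* was by far highest in endothelial-like cells. The sequences are the 250 bases before the RefSeq start site (GRCm38.p6), written 5′ to 3′ on the strand of the gene. Capitals mark CACCTG or its reverse complement CAGGTG, the E-box that Snail and ZEB repressors of epithelial genes bind.
Epcam promoter, chr17:87635729-87635978, plus strand: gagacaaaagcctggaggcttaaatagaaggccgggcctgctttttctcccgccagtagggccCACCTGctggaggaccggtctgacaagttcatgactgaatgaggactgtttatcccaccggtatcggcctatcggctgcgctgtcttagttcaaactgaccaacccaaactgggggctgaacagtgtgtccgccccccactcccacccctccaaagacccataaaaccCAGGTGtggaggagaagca
Spint2 promoter, chr7:29281978-29282227, minus strand: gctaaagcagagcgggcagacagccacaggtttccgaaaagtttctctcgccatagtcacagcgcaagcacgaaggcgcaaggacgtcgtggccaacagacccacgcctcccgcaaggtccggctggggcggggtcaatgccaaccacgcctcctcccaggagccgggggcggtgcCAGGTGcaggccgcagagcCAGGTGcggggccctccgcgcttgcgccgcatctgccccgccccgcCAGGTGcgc
Pard6b promoter, chr2:168080754-168081003, plus strand: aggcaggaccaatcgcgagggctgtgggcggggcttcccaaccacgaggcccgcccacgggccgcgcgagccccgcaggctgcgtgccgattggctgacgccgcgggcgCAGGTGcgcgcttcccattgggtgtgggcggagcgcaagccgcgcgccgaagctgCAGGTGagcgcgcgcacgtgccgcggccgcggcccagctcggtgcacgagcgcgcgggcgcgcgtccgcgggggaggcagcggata
Cldn3 promoter, chr5:134985964-134986213, plus strand: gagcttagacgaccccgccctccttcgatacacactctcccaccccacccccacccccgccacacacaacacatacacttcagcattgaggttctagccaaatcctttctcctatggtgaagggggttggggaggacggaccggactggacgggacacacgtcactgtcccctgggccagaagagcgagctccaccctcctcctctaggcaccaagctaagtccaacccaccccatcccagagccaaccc
Cldn5 promoter, chr16:18776597-18776846, plus strand: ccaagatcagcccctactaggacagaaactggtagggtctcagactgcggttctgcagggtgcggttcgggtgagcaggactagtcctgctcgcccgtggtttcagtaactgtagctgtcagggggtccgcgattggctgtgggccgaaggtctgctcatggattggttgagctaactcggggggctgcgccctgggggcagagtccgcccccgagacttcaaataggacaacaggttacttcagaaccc

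The windows shown lie outside the annotated gene bodies. That of *Epcam* (chromosome 17, 87635979 to 87651129 in GRCm38) held 2 matches, at 187 and 19 bases before the start, that of *Spint2* held 3 and that of *Pard6b* 2. The *Cldn3* and *Cldn5* windows held none, so the genes of both patterns include windows without the letters. A RefSeq window was found for 28 of the 38 genes. At least 1 window held the E-box letters on either strand in 16 of these 28 genes (57.1%), against 5252 of all 27025 genes (19.4%). By window, the shares were 18 of 38 (47.4%) and 17.2%. The genes were *Epcam*, *Cldn4*, *Cldn6*, *Cldn7*, *Ocln*, *F11r*, *Tjp3*, *Crb3*, *Patj*, *Pard6b*, *Krt7*, *Krt8*, *Krt18*, *Spint2*, *Prom1* and *Muc1*, which range from genes on in all tumours to *Krt7*, which gave 2 UMIs in all SyS-like cells. AACCGGTT, the palindrome bound by Grainyhead-like factors, was in none of the 28 and in 0.137% of all genes. A match is a string of letters and not a bound site. *Cdh1* is named here without a sequence, as are *Cldn9*, *Cldn23*, *Marveld3*, *Dsg2*, *Dsc2*, *Pkp2*, *Pkp3*, *Krt19* and *St14*.

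In SyS-like cells, 10 of the 38 genes were above 10 CPM in 5 of 5 tumours, 3 lay between 1 and 10 CPM in all, 9 were below 1 CPM in all, and 16 crossed these limits between tumours. The first group held *Epcam*, *Cldn3*, *Cldn12*, *F11r*, *Tjp1*, *Cgnl1*, *Patj*, *Jup*, *Krt18* and *Spint2*, and so covered adhesion, tight junction, polarity, keratin and protease inhibitor genes. The 9 low genes were *Cldn1*, *Cldn4*, *Cldn9*, *Cldn23*, *Dsg2*, *Dsc2*, *Pkp3*, *Krt7* and *Krt19*. BP replicate 1 had 19 genes above 10 CPM, BP replicate 2 had 13, MP 14, MP+BP 17 and PD+MP 12. Each tumour, whatever its label, thus held some of these genes above 10 CPM and others below 1 CPM.

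**Figure D1:**
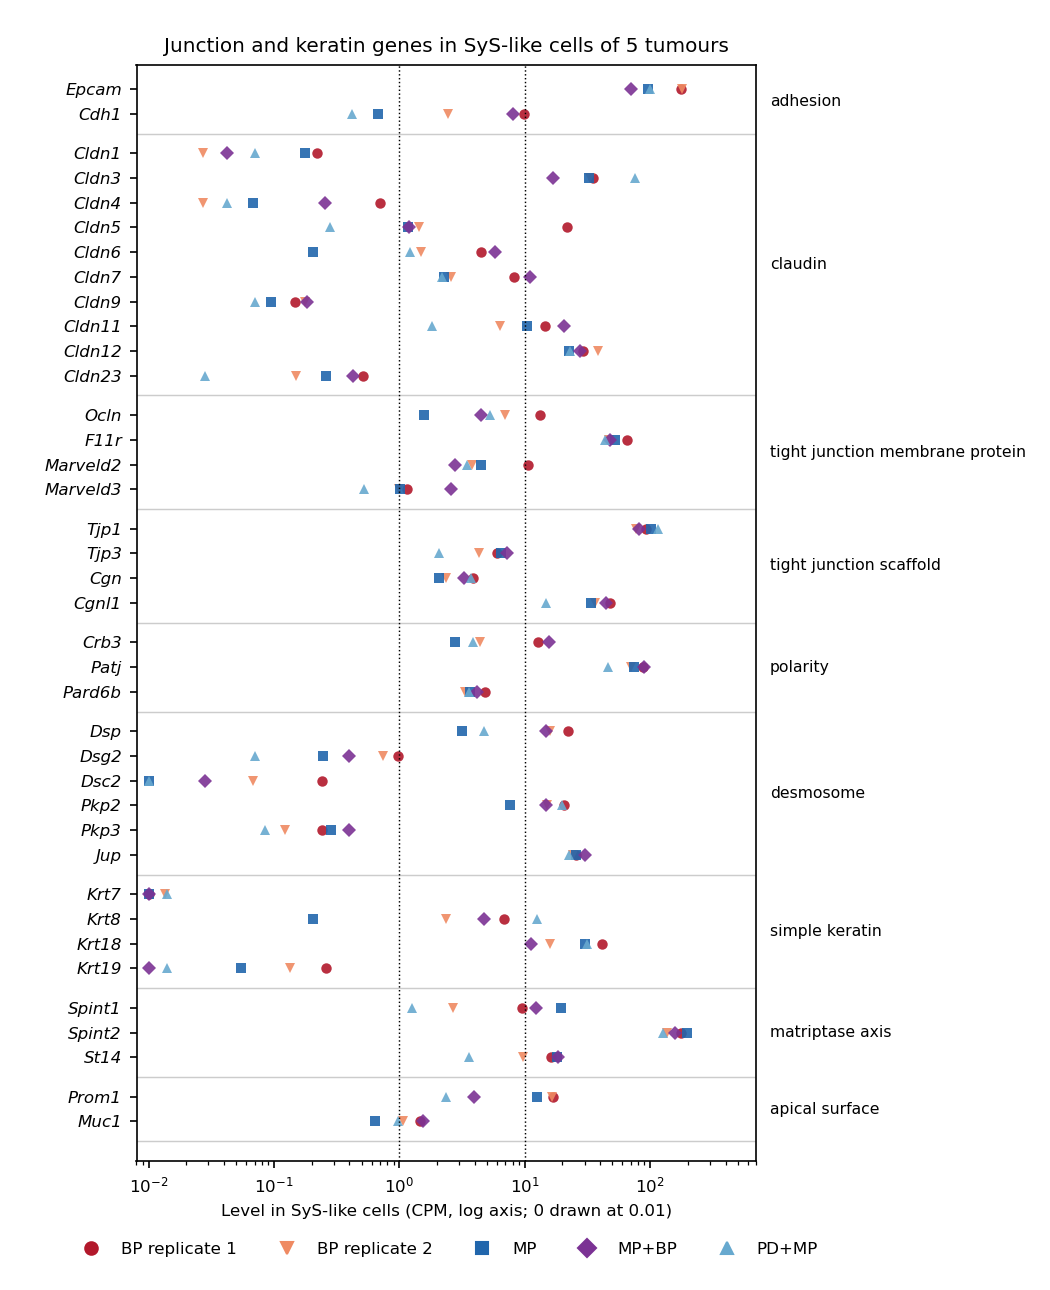
Level of each of the 38 genes in SyS-like cells, in CPM on a log axis, with 1 point per tumour, grouped by role. A level of 0 is drawn at 0.01 CPM and the dotted lines stand at 1 and 10 CPM. *Epcam*, *Tjp1*, *Patj* and *Spint2* lie above 10 CPM in all 5 tumours, whereas *Cdh1*, *Cldn5*, *Krt8* and *Spint1* spread over more than 10-fold.

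Of the adhesion genes *Epcam* was above 10 CPM in every tumour, while *Cdh1* was below 1 CPM in MP and PD+MP. *Epcam*, which encodes a cell adhesion protein of most simple epithelia, was at 175, 179, 96.5, 70.6 and 99.7 CPM, highest in both BP tumours and lowest in MP+BP. The share of SyS-like cells with an *Epcam* UMI was 67.6%, 59.9%, 55.5%, 20.7% and 44.7%. In macrophage-like cells, which should lack the gene, it was 2.01% to 4.0%. Their median of 4324 to 6651 UMIs per cell was below the 8166 to 13991 of SyS-like cells, so the shares were not taken at equal depth. Free RNA was not measured, and its part in these shares was not tested. *Cdh1*, which encodes E-cadherin (chromosome 8, 106603351 to 106670246), was at 9.84, 2.46, 0.678, 8.03 and 0.422 CPM. All 3 tumours whose label holds BP were above the 2 others, while BP replicates 1 and 2 themselves lay far apart.

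Of the 10 claudin genes, *Cldn3* and *Cldn12* were on in every tumour. *Cldn3*, a sealing claudin of many epithelia, was at 35.3, 33.1, 32.5, 16.9 and 75.2 CPM and thus highest in PD+MP and lowest in MP+BP. *Cldn12*, an unusual claudin without the common C-terminal binding motif, stayed between 22.7 and 38.2 CPM, with 29.4, 38.2, 22.7, 27.6 and 23.1 CPM. *Cldn11*, known from myelin and Sertoli cells, varied more, at 14.5, 6.30, 10.4, 20.5 and 1.83 CPM.

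*Cldn7*, which binds EpCAM, was at 8.27, 2.58, 2.25, 10.9 and 2.19 CPM. *Cldn6*, a claudin of embryonic epithelium, was at 4.45, 1.5, 0.203, 5.77 and 1.21 CPM. Both were highest in BP replicate 1 and MP+BP, as *Cdh1* was. *Cldn5*, the endothelial claudin, was at 21.8 CPM in BP replicate 1 and at 1.43, 1.17, 1.20 and 0.281 CPM in the other tumours. *Cldn4* reached 0.702 CPM in BP replicate 1 and at most 0.255 elsewhere, *Cldn1* at most 0.222, *Cldn9* at most 0.184 and *Cldn23* at most 0.517 CPM. These 4 claudins were thus below 1 CPM in the summed SyS-like cells of every tumour. *Cldn4* lies 39.3 kb from *Cldn3* on chromosome 5, and *Cldn9* lies 137 bases from *Cldn6* on the opposite strand of chromosome 17.

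Among the other tight junction membrane genes, *F11r*, which encodes JAM-A, was the steadiest, at 65.8, 47.3, 52.9, 48.2 and 44.1 CPM. *Ocln*, for occludin, was at 13.3, 6.96, 1.59, 4.48 and 5.33 CPM. *Marveld2*, for tricellulin, which seals the corners where cells meet, was at 10.7, 3.83, 4.5, 2.80 and 3.45 CPM. BP replicate 1 was the highest tumour for all of these genes. *Marveld3* stayed between 0.520 (PD+MP) and 2.56 CPM (MP+BP), with 1.14 and 0.985 CPM in BP replicates 1 and 2 and 1.02 in MP.

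The scaffold genes were on in all tumours. *Tjp1*, for ZO-1, was at 92.8, 76.9, 102, 82.2 and 116 CPM, higher in MP and PD+MP than in each tumour with BP in the label. *Cgnl1*, for paracingulin, was at 47.5, 36.7, 34.0, 44.2 and 14.9 CPM, and was higher in each tumour with BP in the label than in MP and PD+MP. *Tjp3*, for ZO-3, was at 6.06, 4.30, 6.44, 7.19 and 2.08 CPM, and *Cgn*, for cingulin, at 3.90, 2.35, 2.07, 3.30 and 3.74 CPM. Of the polarity genes, *Patj*, a partner of the Crumbs complex, was at 87, 69.9, 74.0, 89.2 and 46.4 CPM. *Pard6b*, of the Par complex, kept within 3.33 to 4.84 CPM, with 4.84, 3.33, 3.65, 4.16 and 3.57 CPM. *Crb3*, the epithelial Crumbs protein, was at 12.7, 4.40, 2.78, 15.6 and 3.90 CPM with MP+BP and BP replicate 1 highest, as for *Cldn7*. Counts of *Cldn3*, *Marveld2*, *Tjp1*, *Tjp3*, *Crb3*, *Patj*, *Dsp*, *Dsg2*, *Krt7*, *Krt8*, *St14* and *Prom1* are uncertain where another gene overlaps them on the opposite strand, because the strand setting of the counting was not stated. Those of *Tjp1*, *Patj* and *Prom1* are also uncertain where predicted genes overlap them on the same strand, since such reads can be split.

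Of the 6 desmosome genes 3 were above 1 CPM and 3 below it in every tumour. *Dsp*, for desmoplakin, which ties the plaque to keratin, was at 22.0, 16.0, 3.13, 14.8 and 4.73 CPM. *Pkp2*, for plakophilin-2, was at 20.5, 15.1, 7.68, 14.8 and 19.8 CPM, and *Jup*, for plakoglobin, at 25.9, 24.3, 25.8, 30.3 and 22.6 CPM. The desmosomal cadherins gave far fewer UMIs, with *Dsg2* at 0.0703 to 0.979 CPM and *Dsc2* at 0 UMIs in MP and PD+MP, which allows up to 0.0407 and 0.0422 CPM, and at most 0.240 CPM elsewhere. *Pkp3* stayed between 0.0844 and 0.396 CPM. The low genes thus included both desmosomal cadherins and 1 plaque protein, plakophilin-3.

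The simple keratins were also uneven. *Krt18* was at 41.4, 16.0, 30.4, 11.2 and 31.1 CPM and *Krt8*, the obligate partner of its protein, at 6.87, 2.36, 0.203, 4.71 and 12.6 CPM, although both genes lie 23.7 kb apart on chromosome 15. In MP, 31.8% of SyS-like cells held a *Krt18* UMI, while 0.181% held a *Krt8* UMI (exact binomial 95% interval 0.0781% to 0.356%). *Krt7* gave 1 UMI in each of BP replicate 2 and PD+MP and none elsewhere, and *Krt19* at most 0.258 CPM. Keratins 7 and 19, which biphasic human tumours are often stained for, were therefore below 1 CPM in all labels.

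Among the matriptase and apical genes, *Spint2* varied least between the tumours and the others were more uneven. *Spint2*, for the protease inhibitor HAI-2, was at 176, 137, 197, 158 and 128 CPM, with UMIs in 60.8% to 86.4% of cells. *Spint1*, for HAI-1, ranged from 1.25 to 19.4 CPM, with 9.51, 2.69, 19.4, 12.4 and 1.25 CPM, and *St14*, for matriptase itself, from 3.61 to 18.4 CPM, with 16.1, 9.66, 18.2, 18.4 and 3.61 CPM. For both, PD+MP was the lowest tumour and BP replicate 2 the next. *Prom1*, for prominin-1 on membrane protrusions, was at 16.7, 16.5, 12.5, 3.90 and 2.38 CPM, and *Muc1*, for an apical mucin, at 1.46, 1.07, 0.637, 1.56 and 0.970 CPM.

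SyS-like cells were then compared with the stromal cells of the same tumours, the nearest mesenchymal cells in the data. Of the 38 genes 29 passed the filter on low counts, and 19 of these were higher in SyS-like cells, against 15.9% of 17915 genes tested, and 1 was lower, against 13.5% (edgeR quasi-likelihood test on UMI sums, tumour as a block, Benjamini-Hochberg adjusted p under 0.05 over all genes). Since a gene could pass the filter through the class in which it was high, these counts describe 29 genes and not 38. Their median log2 fold change was 2.61, beside 0.15 for all genes. With tumour as a block, these p-values rest on how the difference between the classes varied over these tumours, with a variance estimate that draws on all genes.

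*Epcam* was at 5.61, 11, 2.91, 12.7 and 6.63 CPM in stromal cells, below SyS-like cells in every tumour (log2 fold change 3.79 ± 0.36 SE, adjusted p = 0.00017 by edgeR). *Cldn3* was at 0.702 to 4.42 CPM in stromal cells and rose by 3.38 ± 0.36 (adjusted p = 3e-04). *Krt18* was at 1.09 to 8.84 CPM there and rose by 2.70 ± 0.45 (adjusted p = 0.0029). All 3 rose, and their SyS-like and stromal levels did not overlap. *Spint2* rose by 3.17 ± 0.35, *Patj* by 2.67 ± 0.29, *Dsp* by 3.66 ± 0.69, *Pkp2* by 2.66 ± 0.43 and *Marveld2* by 2.61 ± 0.52, all without overlap. *Cldn12* (1.5 ± 0.28), *F11r* (1.46 ± 0.33), *St14* (2.15 ± 0.40), *Ocln* (2.95 ± 0.73), *Prom1* (2.67 ± 0.85) and *Cgnl1* (1.00 ± 0.32) also passed, the last at adjusted p = 0.048 by edgeR.

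Calls also held for *Cdh1*, *Cldn6*, *Cgn*, *Pard6b* and *Spint1*, for which stromal cells gave 2 or 3 UMIs in all. The ratio of summed CPM was 14.7 for *Cdh1* (95% counting interval 4.07 to 122), 9.31 for *Cldn6* (2.57 to 77.0), 11.2 for *Cgn* (3.10 to 92.7), 14.3 for *Pard6b* (3.96 to 119) and 22.4 for *Spint1* (7.66 to 109). *Jup* was the 1 gene that was lower, at 42.1, 67.5, 56.8, 27.0 and 19.9 CPM in stromal cells (log2 fold change -0.88 ± 0.28, adjusted p = 0.043), though in MP+BP and PD+MP the SyS-like value was the higher one. *Tjp1* was as high in stromal cells, at 114, 118, 81.2, 102 and 60.4 CPM (-0.26 ± 0.22, adjusted p = 0.42). *Crb3* (2.36 ± 0.81, adjusted p = 0.06), *Krt8* (1.90 ± 0.76, adjusted p = 0.094) and *Cldn7* (0.56 ± 0.62, adjusted p = 0.54) did not pass. Without BP replicate 1, 13 genes were higher, and the calls for *Cdh1*, *Cgn*, *Cgnl1*, *Cldn6*, *Jup*, *Ocln* and *Prom1* were lost. Those for *Cgn*, *Cgnl1*, *Cldn6*, *Jup* and *Prom1* were also lost without BP replicate 2 and without MP, and those for *Cgn*, *Cgnl1* and *Cldn6* without MP+BP. With doublets kept, 14 were higher, without *Cdh1*, *Cgn*, *Cgnl1*, *Cldn6* and *St14*, and the median log2 fold change fell to 1.14.

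**Figure D2:**
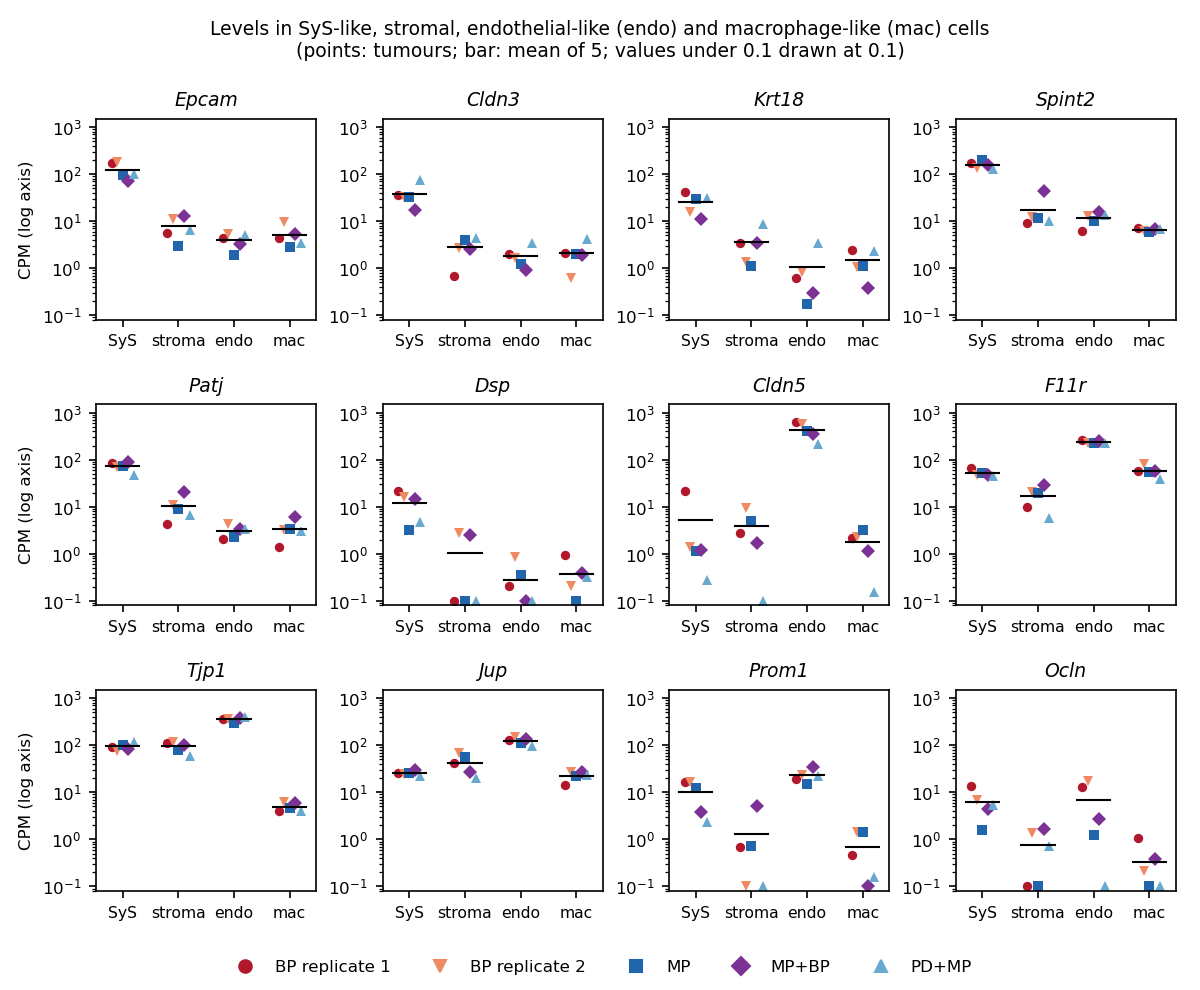
Level of 12 of the genes in SyS-like, stromal, endothelial-like and macrophage-like cells, in CPM on a log axis, with 1 point per tumour and a bar at the mean of the 5 tumours. *Epcam*, *Cldn3*, *Krt18*, *Spint2*, *Patj* and *Dsp* are highest in SyS-like cells of all 5 tumours, and *Cldn5*, *F11r*, *Tjp1*, *Jup* and *Prom1* in endothelial-like cells.

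Endothelial-like cells showed which of the genes were vascular. Of 29 genes tested, 17 were higher in SyS-like cells, against 30% of 17982 genes, and 6 were lower, against 23.3%, with a median log2 fold change of 2.59 beside 0.16 for all genes. *Cldn5* was at 623, 581, 406, 352 and 221 CPM in endothelial-like cells, 65.7% to 72.4% of which held a UMI outside PD+MP (52.5% there), and was lower in SyS-like cells (log2 fold change -8.22 ± 0.69, adjusted p = 9e-06 by edgeR). *F11r* was at 258, 230, 222, 250 and 230 CPM (-2.45 ± 0.13, adjusted p = 5.5e-07). *Tjp1* was at 364, 356, 301, 375 and 392 CPM (-2.17 ± 0.16, adjusted p = 3.2e-06), and *Jup* at 132, 152, 110, 136 and 96.6 CPM (-2.52 ± 0.15, adjusted p = 1e-06). For these 4 genes every endothelial-like value lay above every SyS-like one, and of the 4 classes vessels thus had the highest levels of JAM-A, ZO-1 and plakoglobin transcripts.

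*Prom1* was at 19.6, 23.4, 15.1, 34.0 and 22.4 CPM in endothelial-like cells and was lower in SyS-like cells in 5 of 5 tumours (-1.55 ± 0.50, adjusted p = 0.025 by edgeR), but the ranges overlapped, and without MP+BP or PD+MP the call was lost. *Pkp3* passed as lower on 16 endothelial UMIs (-2.26 ± 0.82, adjusted p = 0.042) and lost the call without BP replicate 1, BP replicate 2, MP or PD+MP. No difference between endothelial-like and SyS-like cells was called by edgeR for *Ocln* (12.7, 17.2, 1.24, 2.73 and 0 CPM in endothelial-like cells, -0.22 ± 0.43, adjusted p = 0.70), *Cgnl1* (68.3, 85.6, 22.1, 28.2 and 46.6 CPM, -0.63 ± 0.31, adjusted p = 0.11), *St14* (6.90 to 14 CPM, 0.24 ± 0.24, adjusted p = 0.44) or *Marveld2* (2.48 to 6.20 CPM, -0.21 ± 0.33, adjusted p = 0.62). The lack of a call does not show equal levels, and the 0 for *Ocln* in PD+MP rests on 80 endothelial-like cells.

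The genes that set SyS-like cells apart from vessels were *Epcam* (4.79 ± 0.22, adjusted p = 2.2e-07), *Cldn3* (4.09 ± 0.21), *Krt18* (5.16 ± 0.44), *Dsp* (4.91 ± 0.56), *Patj* (4.45 ± 0.24), *Crb3* (3.75 ± 0.43), *Spint2* (3.60 ± 0.25), *Spint1* (5.17 ± 0.76), *Pard6b* (3.55 ± 0.62), *Cldn7* (3.13 ± 0.47), *Cldn6* (3.04 ± 0.53), *Pkp2* (2.85 ± 0.39), *Cldn12* (1.65 ± 0.21) and *Tjp3* (1.09 ± 0.32), as log2 fold changes with their SE. *Cdh1* and *Muc1* passed on 2 and 3 endothelial UMIs, with ratios of summed CPM of 35.6 (9.84 to 294) and 6.69 (2.27 to 32.6). *Cgn* had no endothelial UMI and was at least 18.1-fold higher, set against a floor of 3 counts over the class. *Krt8* gave 1 endothelial UMI and was not tested. The calls for *Muc1* and *Tjp3* were lost without BP replicate 2 and without MP+BP.

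**Figure D3:**
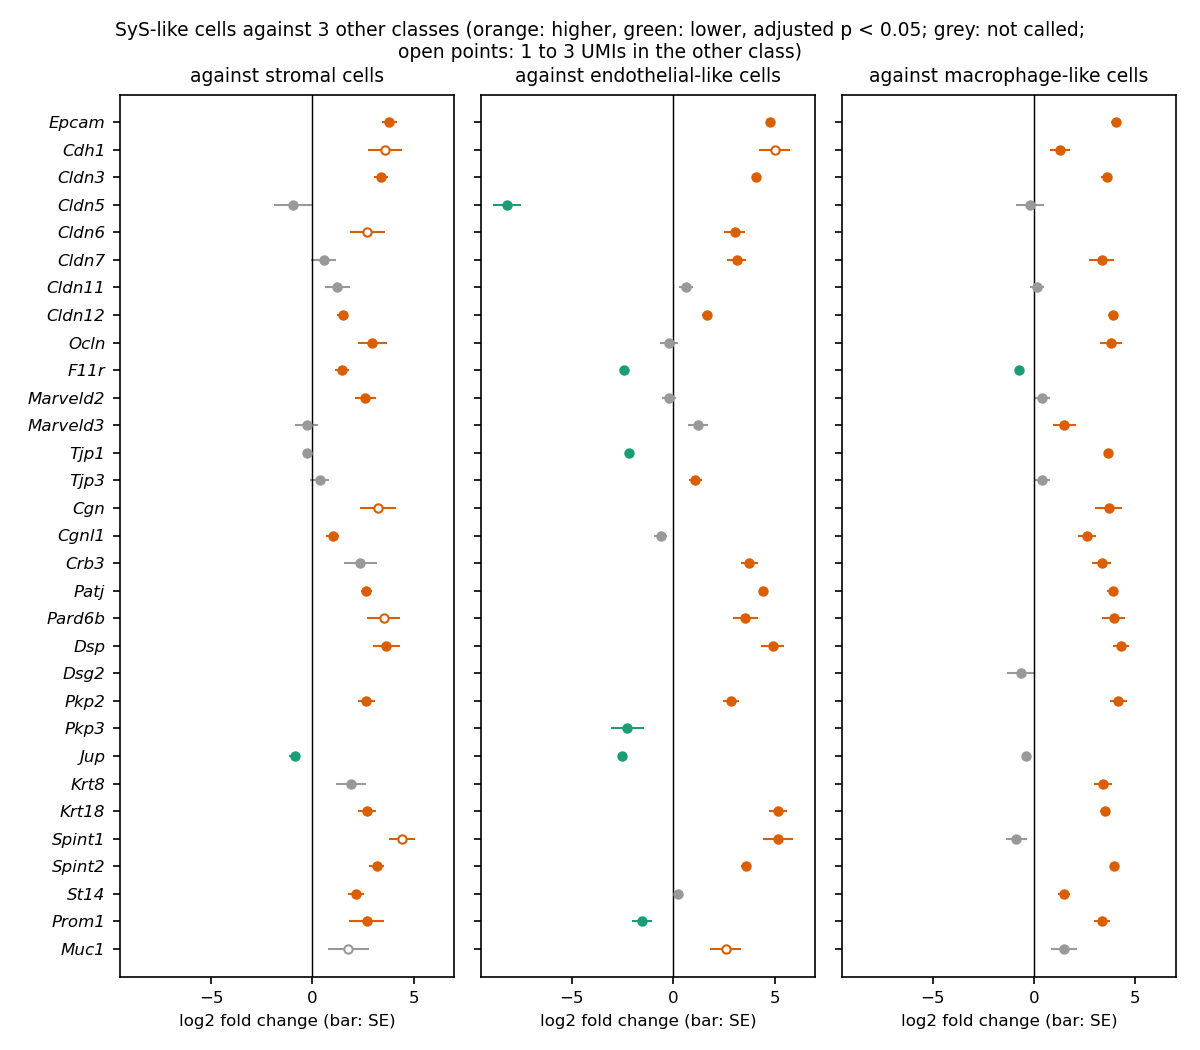
Log2 fold change (point) and SE (bar) from edgeR of the genes that passed the filter, for SyS-like cells against stromal, endothelial-like and macrophage-like cells of the same 5 tumours; orange and green mark higher and lower at adjusted p under 0.05, open points rest on 1 to 3 UMIs in the other class, and *Cgn* against endothelial-like cells, with 0 UMIs there, is left out. *Cldn5*, *F11r*, *Tjp1*, *Pkp3*, *Jup* and *Prom1* lie below 0 in the endothelial panel, at -8.22 to -1.55.

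Macrophage-like cells, which lack most epithelial genes, were the last class compared. Of 29 genes tested 20 were higher in SyS-like cells, against 36.5% of 17716 genes, and 1 was lower, against 27.8%, with a median of 3.33 beside 0.21 for all genes. *Tjp1* was at 4.0 to 6.29 CPM in macrophage-like cells and rose by 3.64 ± 0.22 on the log2 scale (edgeR adjusted p = 1.9e-07), *Krt8* was at 0 to 1.10 CPM and rose by 3.39 ± 0.46 (adjusted p = 8.9e-05), and *Prom1* was at 0 to 1.47 CPM and rose by 3.35 ± 0.40 (adjusted p = 3.6e-05). *Epcam* rose by 4.03 ± 0.24, *Spint2* by 3.93 ± 0.17, *Cldn12* by 3.88 ± 0.23, *Dsp* by 4.30 ± 0.39 and *Pkp2* by 4.15 ± 0.42. *F11r* was lower, at 57.1, 80.3, 55.2, 57.9 and 38.8 CPM in macrophage-like cells (-0.76 ± 0.17, adjusted p = 0.0026). In BP replicate 1 and PD+MP its CPM was the higher in SyS-like cells, and with scaling by library totals alone the call was lost. *Jup* (14.6 to 27.0 CPM; -0.42 ± 0.17, adjusted p = 0.056) and *Spint1* (13.7, 2.51, 5.72, 10.4 and 8.49 CPM; -0.88 ± 0.53, adjusted p = 0.17) did not pass. *Cdh1* passed narrowly (1.27 ± 0.50, adjusted p = 0.047), with 5.40 CPM in macrophage-like cells of MP+BP, and lost the call without BP replicate 1, BP replicate 2 or MP. *Marveld3* (1.49 ± 0.55, adjusted p = 0.036) lost it without any 1 tumour other than PD+MP.

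Over the comparisons, 11 genes were called higher in SyS-like cells against all 3 classes, namely *Epcam*, *Cdh1*, *Cldn3*, *Cldn12*, *Cgn*, *Patj*, *Pard6b*, *Dsp*, *Pkp2*, *Krt18* and *Spint2*, of 27 tested in all 3 (10.6% of all 16885 genes so tested). Without a test, 15 of the 38 genes had the highest CPM of these 4 classes in SyS-like cells in 5 of 5 tumours (17.0% of 27529 features), 5 had it in endothelial-like cells (5.33%), namely *Cldn5*, *F11r*, *Tjp1*, *Jup* and *Prom1*, and none in stromal or macrophage-like cells. In these ranks a class with 0 UMIs stood as lower whatever its depth. *Cldn4* in PD+MP ranked highest in SyS-like cells on 3 UMIs (0.0422 CPM) of 71110846, beside 579508 UMIs in all endothelial-like cells. For genes at such levels, among them *Cdh1* and *Cldn6* in MP and PD+MP, the rank does not show a lower level in the smaller classes. Classes with few cells were not tested, and some of them held higher levels. *Cdh1* was at 80.2, 0, 62.3, 57.9 and 15 CPM in 398 dendritic-like cells and at 8.92, 20.3, 18.5, 42.6 and 25.4 CPM in 329 T- or NK-like cells. In each class these values lay above SyS-like cells in 4 of 5 tumours. The sums were small, at 94426 to 667630 UMIs per tumour in dendritic-like and 98616 to 270184 in T- or NK-like cells. In BP replicate 2 the T- or NK-like value lay under a floor of 3 counts, and the dendritic-like 0 rests on 21 cells. *Patj* reached 112 and 115 CPM in T- or NK-like cells of BP replicate 1 and MP. *Cldn1*, *Cldn4*, *Cldn9*, *Cldn23*, *Dsc2*, *Krt7* and *Krt19* entered no comparison of classes. *Cldn1*, a claudin of skin, reached 6.76 CPM in stromal cells of MP+BP, on 8 UMIs, above its level in all SyS-like cells.

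The BP label names the epithelial component, so SyS-like cells of the 3 tumours whose label holds BP were set against those of the 2 others. With edgeR 0 of 35 genes tested passed in either direction, and neither did any of all 20795 genes (0% higher, 0% lower, smallest adjusted p = 0.366). At an unadjusted p under 0.05, 6 of the genes were higher and 1 lower, beside 1163 and 1018 of all genes. DESeq2 called 468 genes higher and 110 lower, among them *Cdh1* and *Dsp*. Ranges did not overlap in 11 of the 35 genes with the BP side higher (18.2% of all genes) and in 1 with it lower (10.2%).

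*Cdh1* was at 6.78 ± 3.85 CPM with BP in the label and 0.550 ± 0.18 without (SD, n = 3 and 2; log2 fold change 3.51 ± 0.71 SE, edgeR adjusted p = 0.44). *Dsp* was at 17.6 ± 3.9 against 3.93 ± 1.1 CPM (2.06 ± 0.34, adjusted p = 0.43). *Crb3* was at 10.9 ± 5.8 against 3.34 ± 0.79 CPM (1.59 ± 0.57, adjusted p = 0.46). These 3 genes, of the adherens junction, desmosome and Crumbs complex, were each higher in every tumour with BP in the label, by amounts that the test over all genes did not call. Other genes of the same roles overlapped, among them *Pkp2*, *Jup*, *Patj* and *Pard6b*. The other genes without overlap were *Cldn5*, *Cldn6*, *Cldn7*, *Cldn9*, *Cldn12*, *Cgnl1*, *Dsg2* and *Muc1*, and on the lower side *Tjp1* (-0.49 ± 0.18, adjusted p = 0.46). For *Cldn5* the margin was small, 1.20 CPM in MP+BP against 1.17 in MP, and it overlapped with doublets kept, with at least 1500 genes per cell, at the finer clustering and with the unnamed clusters added, while the 10 others and *Tjp1* kept apart under each. *Epcam* (0.44 ± 0.43, adjusted p = 0.72), *Krt18* (-0.53 ± 0.55, adjusted p = 0.72), *Krt8* (-0.60 ± 1.32, adjusted p = 0.88) and *Cldn3* (-1.02 ± 0.47, adjusted p = 0.49) overlapped, the last 3 with the BP side lower.

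Levels were then described by cluster. The 38 genes were not used to form the clusters, but clusters come from the same cells, so no test was made. A cluster was chosen for its *Cdh1* level, so its high *Cdh1* values follow from that choice. The counting intervals below pool the UMIs of cells of 1 tumour, which are not replicates, and leave out the spread between cells. That cluster held 532 SyS-like cells, led by *B530045E10Rik*, *Il17re*, *Gbp2b*, *Slc6a5* and *Fgfbp1*, with 10 of 12 SyS markers counted. It held 427 cells of BP replicate 1 (15.7% of its SyS-like cells), 58 of MP+BP (0.979%), 46 of MP (1.04%), 1 of BP replicate 2 and 0 of 6165 in PD+MP, which allows a share of up to 0.0487%. Its cells were deeper than the others, at a median of 16987 against 13568 UMIs in BP replicate 1, 20703 against 8108 in MP+BP and 13413.5 against 10899 in MP.

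In MP+BP, 27 of the 38 genes were higher inside the cluster by counting intervals that lay apart, none was lower and 11 overlapped. The 27 include *Cdh1*, by which the cluster was chosen. Of 25273 features with a UMI, among them 36 of the 38 genes, 14.3% were higher and 9.69% lower. *Epcam* was at 868 CPM inside and 52.0 outside it, with a UMI in 84.5% and 20.1% of cells. *Cdh1* was at 145 and 4.82 CPM, *Cldn6* at 128 and 2.91, *Cldn7* at 152 and 7.64 and *Cldn3* at 253 and 11.4 CPM. These 58 cells held 41.4% of the *Cdh1* and 50.7% of the *Cldn6* UMIs of all 5927 SyS-like cells. *Crb3* (126 and 13.1 CPM), *Dsp* (110 and 12.5), *Ocln* (62.5 and 3.13), *St14* (89.1 and 16.8), *Spint1* (65.6 and 11.1), *Krt18* (81.1 and 9.54), *Krt8* (35.9 and 3.98) and *Cldn4* (6.19 and 0.116) were higher inside too. The genes with overlapping intervals included *Tjp1* (91 and 82 CPM), *Marveld2* (3.10 and 2.79), *Tjp3* and *Cgnl1*, and *Cldn1*, *Cldn5*, *Krt7* and *Krt19* had no UMI inside. The 10 keratinocyte markers summed to 139.9 CPM inside, led by *Sfn* at 54.5, and 45.8 outside, with UMIs of 5 and 9 of them, and their part in the result was not tested.

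In BP replicate 1 the same cluster was less distinct. *Cdh1* was at 30.6 CPM inside and 5.08 outside, *Cldn6* at 13.9 and 2.29, *Cldn7* at 26.0 and 4.20, *Crb3* at 29.1 and 8.99 and *Marveld2* at 23.6 and 7.69 CPM. A UMI was found in 10.3% and 5.91% of cells for *Cdh1*, 9.37% and 3.59% for *Cldn6* and 9.60% and 4.46% for *Cldn7*. *Epcam* hardly differed, at 211 and 167 CPM, and *Cldn3* was lower inside, at 11.6 and 40.7 CPM. Intervals lay apart for 18 genes that were higher (16.1% of 25145 features) and 2 that were lower inside (18.4%), the other being *Prom1*. The keratinocyte markers summed to 35.2 CPM inside and 72.7 outside. The vascular claudin *Cldn5* was at 85.0 CPM inside and 7.35 outside, with a UMI in 39.8% and 5.25% of cells, and the 427 cells held 72.6% of its UMIs in this tumour. The 11 endothelial markers summed to 241 CPM inside and 303 outside, lower where *Cldn5* was higher. Of these cells 170 held a *Cldn5* UMI, 44 a *Cdh1* UMI and 17 both. In MP+BP the cluster had no *Cldn5* UMI among 58 cells, 37 of which held *Cdh1*. Clusters of other SyS-like cells had *Cldn5* between 0.184 and 4.93 CPM.

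In MP the 46 cells of this cluster had no *Cdh1* UMI. *Krt18* (54.7 and 30.1 CPM) and *Ocln* (9.57 and 1.51 CPM) were higher inside (4.37% of 24732 features), *Patj* and *Cgnl1* lower (5.81%), and intervals overlapped for 34 of the genes. *Krt18* was the 1 gene that was higher inside in all 3 tumours.

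**Figure D4:**
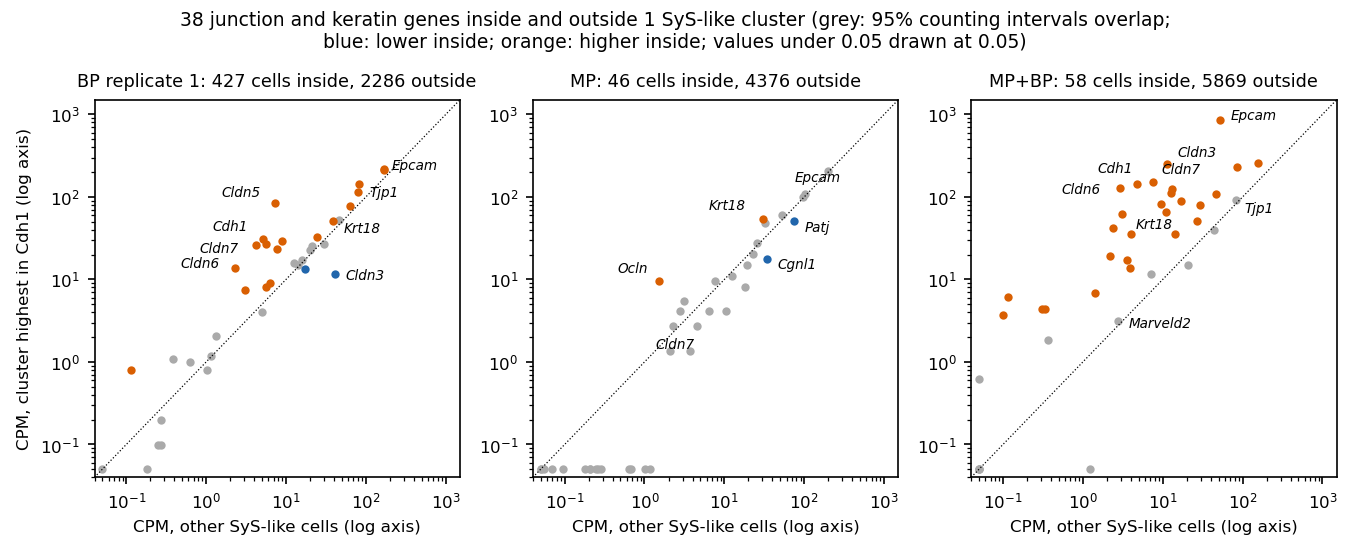
CPM of the 38 genes inside (vertical) and outside (horizontal) the SyS-like cluster highest in *Cdh1*, on log axes, in the 3 tumours with more than 1 cell in it; the dotted line marks equal levels and colours mark 95% counting intervals that lie apart. Intervals lie apart for 27 genes above the line in MP+BP, for 18 above and 2 below it in BP replicate 1, and for 2 above and 2 below it in MP. *Cdh1*, by which the cluster was chosen, is among the 27 and the 18.

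Without this cluster, the same 11 genes stayed above and *Tjp1* below in the tumours with BP in the label, *Cdh1* at 5.08, 2.46, 0.685, 4.82 and 0.422 CPM. *Cldn5* then fell to 7.35 CPM in BP replicate 1. Without it *Cgnl1*, *Cldn6* and *Prom1* were no longer called against stromal cells, *Pkp3* against endothelial-like cells and *Cdh1* against macrophage-like cells, while *Jup* was newly called lower against the last.

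The 2 keratin genes peaked in different clusters. *Krt18* was highest in the cluster highest in *Cdh1*, at 55.5 CPM, and was at 40.4 CPM in a cluster led by *Gap43*. *Krt8* was highest, at 20.4 CPM, in a SyS-like cluster of 1806 cells led by *Bmp5*, *Cartpt* and *Penk*. The cluster led by *Gap43*, mostly of PD+MP cells, had the highest *Cldn3*, at 97.3 CPM. Among SyS-like clusters *Spint1* peaked at 36.9 CPM in one led by *Cpvl*. The genes were thus not at their highest in 1 common group of cells. These levels were pooled over tumours, and 1 tumour gave 50.9% or more of the cells of every SyS-like cluster. They therefore do not separate cluster from tumour.

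Detection beside *Epcam* was then examined cell by cell, after each SyS-like cell had been thinned to 3000 UMIs so that depth was equal. An *Epcam* UMI remained in 31.8%, 30.4%, 21.9%, 9.23% and 22.1% of cells. Of 28 other genes found in at least 50 thinned cells, 9 were found more often in cells with *Epcam* than without it in 5 of 5 tumours, namely *Cldn3*, *Ocln*, *F11r*, *Crb3*, *Pard6b*, *Dsp*, *Krt18*, *Spint2* and *St14*, and *Cgnl1* was found less often in 5 of 5. When all features were thinned together, in a separate draw, 7 of the 28 were found more often (6.92% of 16289 features) and 2 less often (6.24%). The list moved with the draw, the depth and the cells, with 8 genes at 5000 UMIs and 7 without the cluster highest in *Cdh1*, and *Cldn3* and *Spint2* were the genes found more often in 5 of 5 tumours in each of these 4 counts. The gaps differed in size by tumour. In MP+BP, *Cdh1* was in 7.95% of cells with and 0.728% of cells without *Epcam*, *Cldn6* in 5.17% and 0.202%, *Cldn7* in 12.5% and 1.01%, *Cldn3* in 12.9% and 1.70% and *Krt8* in 4.97% and 0.465%. In BP replicate 1, *Cdh1* was in 2.39% and 1.0% and *Cldn7* in 2.63% and 0.723%. In PD+MP the shares were 0.174% and 0.222% for *Cdh1* and 0.781% and 0.739% for *Cldn7*, and in BP replicate 2 *Cdh1* was in 0.664% and 0.812%. For *Cdh1* and *Cldn7* the gap was thus wide in MP+BP, smaller in BP replicate 1 and within counting intervals in PD+MP and BP replicate 2, while *Tjp1* showed little gap in any tumour. These shares are a description, and cells of 1 tumour are not replicates.

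**Figure D5:**
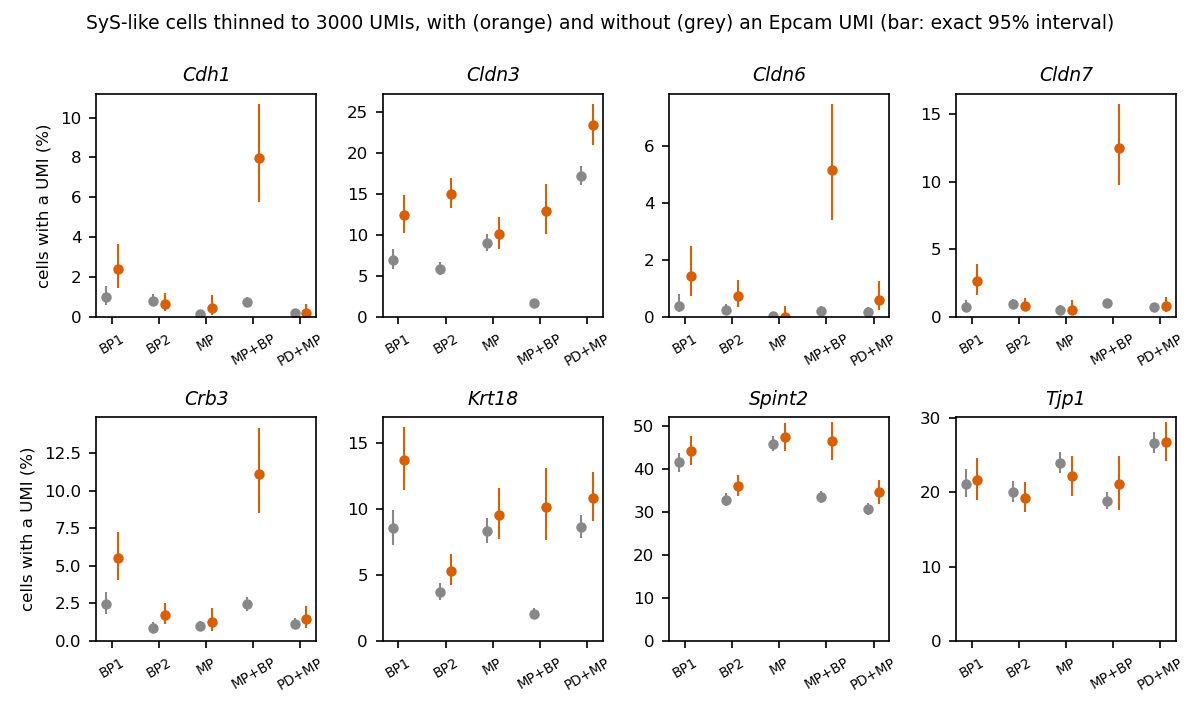
Share of SyS-like cells with a UMI of 8 of the genes, in percent, after thinning to 3000 UMIs, in cells with (orange) and without (grey) an *Epcam* UMI in each tumour; bars are exact 95% binomial intervals. For *Cdh1*, *Cldn6* and *Cldn7* the 2 points lie far apart in MP+BP (7.95% and 0.728% for *Cdh1*), while for *Tjp1* they lie close together in every tumour.

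Of 60 other junction, polarity and epithelial genes that were listed beside the 38, 43 were tested against stromal cells. Of these, 13 were higher in SyS-like cells (15.9% of all genes) and 4 lower (13.5%), with a median log2 fold change of 0.33. Among the largest increases were those of *Rab25*, for a GTPase of apical recycling (1 stromal UMI, so its fold is not given), *Lsr*, for the tricellular junction protein angulin-1 (3.42 ± 0.41, edgeR adjusted p = 0.00053), *Cxadr*, for the coxsackie and adenovirus receptor (2.70 ± 0.22, adjusted p = 7.2e-05) and *Prkcz*, for an atypical protein kinase C (2.51 ± 0.35, adjusted p = 0.0012). The decreases were in *Esam*, for an endothelial adhesion protein (-6.31 ± 0.37), *Cldn15* (-1.84 ± 0.34), *Jam3* (-0.81 ± 0.21) and *Pard6g* (-0.75 ± 0.19). Against endothelial-like cells 17 of 44 were higher and 14 lower (median 0.48), and against macrophage-like cells 29 of 45 were higher and 5 lower (median 1.84). None of 50 passed for the biphasic label. A keratin outside the 38 genes, *Krt23*, was chosen after its values were seen. It was at 66.7, 57.4, 13.6, 11.8 and 19.0 CPM in endothelial-like cells and at most 0.222 CPM in SyS-like cells (-9.04 ± 0.30, adjusted p = 3.9e-08).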

How the data were processed

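The deposited matrices hold raw UMI counts per gene and cell, which the authors made with Cell Ranger 7.2.0 (per the file headers) on mm10. The annotation release and the strand setting are not given in the sources used here. Cells with at least 750 genes and at most 25% mitochondrial counts were kept, and doublets were removed with Scrublet (scanpy 1.11.5) up to the expected share. Clustering used 3000 features by Pearson residual variance, 30 principal components and Leiden at resolution 1, without the 38 genes or 60 other pathway genes. A cluster was named when at least 3 markers were counted, and stayed unnamed where markers of another class led it or its depth was low. UMI counts were summed per tumour and class. Total UMIs per matrix ranged from 89996321 to 118649103, and SyS-like sums from 54164153 to 74106230.

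Tests used edgeR 4.0.16 (TMM, filterByExpr, quasi-likelihood, Benjamini-Hochberg over all genes), with tumour as a block between classes and no covariate between labels. DESeq2 1.42.0 was an alternative, with other scaling, filters, clusterings, doublets kept and each tumour left out. Leaving out the cluster highest in *Cdh1*, among others, was chosen after seeing the data. The statistics were tested on simulated data. Promoter windows came from RefSeq and gene positions from GENCODE, both on GRCm38. All 38 genes are named, with a value in every tumour for those above 10 CPM in any tumour, called in any comparison or highest in endothelial-like cells in all, and up to 5 other pathway genes in each direction against stromal cells. 1 gene that this rule names is not reported here. The genes and lists were chosen with earlier results of these data known.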

Additional observations from a re-analysis of the deposited data

Results flagged for a closer look

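The *Tjp1* level in SyS-like cells minus that in stromal cells was -20.9, -41.6 and -20.1 CPM in BP replicate 1, BP replicate 2 and MP+BP, but 21.2 CPM in MP and 56.1 CPM in PD+MP, so that all tumours with BP in the label lay on one side of 0 and both others on the other. This difference between labels was not tested.

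*Epcam* UMIs were also present in cells left out of every comparison because their clusters stayed unnamed. It was at 235 CPM in a cluster of 2666 cells led by *Gm6569*, which stayed unnamed because a marker of another class, *Acta2*, was among its leading genes. It was at 123 CPM in a cluster led by *Kcnip4*, at 63.6 CPM in one led by *Gm26917* and at 52.7 CPM in one led by *Gm21798*, which stayed unnamed for low UMI counts. All 4 values lay above the levels in stromal, endothelial-like and macrophage-like cells.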

How the results depend on the processing

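Of 1017 values of single genes under the alternatives, 946 kept their direction and side of the threshold, 70 were no longer past it and 1 reversed, *Cldn6* against stromal cells with doublets kept (log2 fold change -0.084, edgeR adjusted p = 0.95). With library totals only in place of TMM, the count of lower genes fell to 0 against stromal and 0 against macrophage-like cells, the median of all genes moved by 0.27, 0.25 and 0.63 on the log2 scale against stromal, endothelial-like and macrophage-like cells, and the share of higher calls among all genes moved from 54.1% to 71.6%, 56.3% to 68.3% and 56.7% to 77.0%. With no filter on low counts, 0 genes were lower against stromal cells. With SyS-like sums thinned to the UMI total of the other class in the same tumour, 8 genes were higher against stromal, 8 against endothelial-like and 13 against macrophage-like cells and 2 lower against the last, of 11, 19 and 19 tested, since fewer genes passed the filter. Against macrophage-like cells, 2 were lower with at least 1500 genes per cell and 2 without the cluster highest in *Cdh1*. Leaving out each tumour gave 13 to 20 higher and 0 to 1 lower genes against stromal cells and 1 to 2 lower against macrophage-like cells. Without the replicate block, 16, 16 and 19 genes were higher. The size of the changes depended on the removal of doublets. With doublets kept, the median log2 fold change of the genes tested was 1.14, 1.65 and 1.72 against stromal, endothelial-like and macrophage-like cells. With doublets removed it was 2.61, 2.59 and 3.33. For the biphasic label DESeq2 called 2 of the genes higher, and without MP edgeR called 513 genes higher and 282 lower over all genes but none of these. The cause of these changes was otherwise not tested. Depth limits the 9 genes below 1 CPM, and with 1 tumour for most labels no label has its own error.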

Other observations

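Cells that held UMIs of *Cdh1*, *Cldn6* and *Cldn7* at once, a combination chosen after the values were seen, numbered 36 of 2713 SyS-like cells in BP replicate 1 (1.33%), 4 of 5121 in BP replicate 2 (0.0781%), 0 of 4422 in MP (which allows up to 0.0678%), 62 of 5927 in MP+BP (1.05%) and 8 of 6165 in PD+MP (0.130%). In the unnamed clusters there were 4, 2, 0, 7 and 0, in the same order. There were none among endothelial-like, stromal and macrophage-like cells, whose median depths of 3064.5 to 7865 UMIs were far lower than those of the cells with all 3 genes. The cluster highest in *Cdh1* held 25 of the 36 and 32 of the 62. These cells were deep, at a median of 39524.5 UMIs in BP replicate 1 and 34543.5 in MP+BP, against 13991 and 8166 for all SyS-like cells. After thinning to 5000 UMIs, 7, 0, 0, 6 and 4 such cells remained. All of them held an *Epcam* UMI before thinning.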
